A study of Mus musculus with 12 samples.

Results

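Expression of the oxidative phosphorylation genes was described in the whole lungs of 12 mice that lack miR-30a (miR-30a-/-), measured by RNA-Seq. Members were the protein-coding genes of the count table whose symbols belong to the subunits of complexes I to V, namely the Nduf subunit series, Sdha to Sdhd, Uqcr, Cox4 to Cox8 and Atp5, together with the mt- genes of the mitochondrial genome. The rule reads symbols and biotype alone. It gave 100 genes of 55487 in the table, 87 nuclear-encoded and 13 mitochondrially encoded. Of the 87, 86 passed the filter on low counts and were tested, and the other one, the second gene listed as Atp5o (ENSMUSG00000116933), had 0 counts in every lung. All mice were C57BL/6J and carried the CRISPR/Cas9 deletion of the whole miR-30a gene, in all 4 groups, so the deletion itself was not compared. The Mir30a precursor had 0 counts in every lung, but so had the intact Mir30d and Mir30e, so its count is no check of the deletion. Pups pooled from several litters breathed 95% oxygen (hyperoxia) or room air from postnatal day (PND) 1 to PND 5, and lungs were taken on PND 21. Each of the 4 groups, room air females, hyperoxia females, room air males and hyperoxia males, held 3 lungs, numbered here by the animal numbers of the labels. Their WT counterparts were not analysed here.

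Counts on genes ran from 8763033 to 16741694 per lung, and 3 counts, taken as the smallest detectable level, stood at 0.191 to 0.327 CPM, a count scaled by the upper-quartile normalised library size. Such floors cover counting error only. Lung markers were present in all libraries, as the 5 alveolar type 2 markers summed to 3823 to 9808 CPM and none of them was at 0. The library of room air male replicate 1 stood apart, with skeletal muscle markers at 2346 CPM in sum against 135 to 223 CPM in the other 11 lungs. Olfactory and vomeronasal receptor genes, which lung has little use for, took 0.410 to 0.945% of counts, and this receptor share served as a measure of background reads.

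Oxidative phosphorylation makes most of the ATP of a resting cell. Complex I oxidises NADH and complex II succinate, complex III passes the electrons to cytochrome c, complex IV hands them to oxygen, and complex V, the ATP synthase, spends the resulting proton gradient on ATP. Complexes I, III, IV and V are built from subunits of both genomes, while complex II is wholly nuclear-encoded. In lung, alveolar type 2 cells are rich in mitochondria, and several complex IV subunits have isoforms restricted to muscle, testis or lung. The nuclear genes are known to share control by NRF1, by ETS factors such as GABP, by YY1 and by ERR factors, whose coactivator is PGC-1 alpha.

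Motifs of these factors were looked up in the promoters. Upstream stretches of 250 bases before the start were taken from RefSeq's table (GRCm38.p6) for 68 of the 86 tested members. Members were matched by symbol, and the genes of 1 chromosome were left out of the search. The NRF1 core GCGCATGCG, searched on both strands, lay in 6 of these (8.82%) against 1.64% of the 27025 genes searched in that table. The ETS motif CCGGAAGT lay in 3 members (4.41%) against 3.23% of genes, the YY1 motif AAGATGGCG in 1 (1.47%) against 0.71%, and the ERR motif TCAAGGTCA in 1 (1.47%) against 0.422%. None of the 4 motifs contains another, and the NRF1 core overlaps its own reverse complement by all but 1 base. A match is a description of these windows and no evidence of binding. The following 60-base stretches are shown because they hold the motif that was commonest among members relative to all genes. They are written on the gene's own strand, with the NRF1 core in capitals. Capitals run 1 base longer where both strands hold it, and in Ndufa8 they show its reverse complement.

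Ndufa11, a complex I accessory subunit, chr17:56717677-56717736, plus strand: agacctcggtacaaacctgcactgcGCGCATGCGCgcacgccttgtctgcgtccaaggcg
Ndufa8, a complex I accessory subunit, chr2:36049339-36049398, minus strand: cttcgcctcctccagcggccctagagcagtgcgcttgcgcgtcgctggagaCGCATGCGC
Cox6a1, the ubiquitous isoform of complex IV subunit VIa, chr5:115349086-115349145, minus strand: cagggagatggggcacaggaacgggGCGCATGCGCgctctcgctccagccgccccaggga
Atp5g2, a gene of ATP synthase subunit c, chr15:102671055-102671114, minus strand: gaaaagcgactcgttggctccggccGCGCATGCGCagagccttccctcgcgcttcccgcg
Atp5k, ATP synthase subunit e, chr5:108434415-108434474, minus strand: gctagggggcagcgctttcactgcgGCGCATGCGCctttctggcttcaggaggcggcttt

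In these 5 stretches the core starts 60, 9, 162, 42 and 50 bases before the start. Over the 6 members with the core, the sixth being Atp5l, the median log2 change after hyperoxia was −0.23 in females and 0.04 in males. Over the other matched members it was −0.32 and −0.09. Nothing particular to the motif was read from these medians.

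The 13 mitochondrially encoded members gave no signal at all. They are the complex I subunits mt-Nd1 to mt-Nd6 and mt-Nd4l, the cytochrome b of complex III (mt-Cytb), the 3 core subunits of complex IV (mt-Co1, mt-Co2 and mt-Co3) and the ATP synthase subunits mt-Atp6 and mt-Atp8. Each had 0 counts in each of the 12 lungs. So did all 37 genes of the mitochondrial chromosome, the 2 ribosomal RNA genes and the 22 transfer RNA genes included. Lung tissue holds these transcripts at high levels as a matter of textbook knowledge, so the zeros are a property of the table and set no upper limit on the level. Which step of the processing gave them was not tested. Hence there was no level, no fold change and no comparison of exposures for these members.

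Nuclear pseudogenes that carry pieces of the mitochondrial genome were also nearly empty. For 8 of the 13 members, at least 5% of the 50-base words of the transcript recur in such a nuclear gene. Gm28661 holds 99.5% of the words of mt-Co2 and had 6 to 29 counts per lung. Gm28437 holds 99.9% of those of mt-Co3 and had 1 to 13. Gm10925, which holds 99.5% of those of mt-Atp6, had 2 to 22. Across the 10 copies the range was 0 to 53 counts per lung.

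The nuclear-encoded members took 0.138 to 0.212% of all counts. In the room air females this share was 0.189, 0.212 and 0.162% and in the hyperoxia females 0.163, 0.147 and 0.148%. In the room air males it was 0.168, 0.168 and 0.167% and in the hyperoxia males 0.183, 0.138 and 0.159%. The share was thus highest in room air female replicate 5 and lowest in hyperoxia male replicate 2, and the exposure groups overlapped in both sexes.

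Levels of different genes were compared per kilobase of merged exon. Over the 86 tested members the median level was 9.66 CPM per kb, from 1.76 to 49.05. By complex, the median was 8.74 for the 36 members of complex I, 13.4 for the 4 of complex II, 12.4 for the 8 of complex III, 11.2 for the 21 of complex IV and 7.97 for the 17 tested of complex V. The complexes overlapped widely in level.

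The most abundant member was Cox8a, the ubiquitous isoform of complex IV subunit VIII, at 49.05 ± 11.1 CPM per kb (SD, n = 12). Cox6b1, the ubiquitous subunit VIb, followed at 40.5 ± 7.86 CPM per kb (SD, n = 12). In the ATP synthase the subunits of the catalytic head led: Atp5a1, the alpha subunit, stood at 33.5 ± 7.24 CPM per kb (SD, n = 12) and Atp5b, the beta subunit that holds the catalytic sites, at 31.3 ± 7.22 CPM per kb (SD, n = 12). In complex I the highest was Ndufc2 at 27.8 ± 6.21 CPM per kb (SD, n = 12), in complex III Uqcr10 at 22.9 ± 5.17 CPM per kb (SD, n = 12) and in complex II Sdhd, a membrane anchor, at 15.4 ± 3.12 CPM per kb (SD, n = 12). Cox8a and Cox6b1 differed by less than the sum of their SDs, as did Atp5a1 and Atp5b. Per kilobase of the longest coding transcript other members led in 4 complexes: Ndufa7 (45.5 CPM) over Ndufc2 (30.7), Sdhb (25.2) over Sdhd (15.4), Uqcrb (32.2) over Uqcr10 (30.8) and Atp5b (69.2) over Atp5a1 (39.3).

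At the low end of complex IV was Cox7b2, the testis isoform of subunit VIIb, at 1.76 ± 0.891 CPM per kb (SD, n = 12). Background reads would account for 68.5% of its counts, the only member with more than 50%. The lowest of complex I was Ndufb4 at 3.42 ± 0.510 CPM per kb (SD, n = 12), of complex II Sdhc, the other membrane anchor, at 9.67 ± 1.57 CPM per kb (SD, n = 12), and of complex III the core subunit Uqcrc1 at 9.65 ± 1.41 CPM per kb (SD, n = 12). Atp5l, subunit g of the ATP synthase, was lowest of complex V at 3.07 ± 0.346 CPM per kb (SD, n = 12). This rank turned on the length used, because the merged exons of Atp5l span 6443 bases and its longest coding transcript 544: per kilobase of that transcript its level was 36.3 CPM. For Uqcrc1 and Sdhc the values per transcript length were 24.1 and 9.92 CPM per kb.

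**Figure D1:**
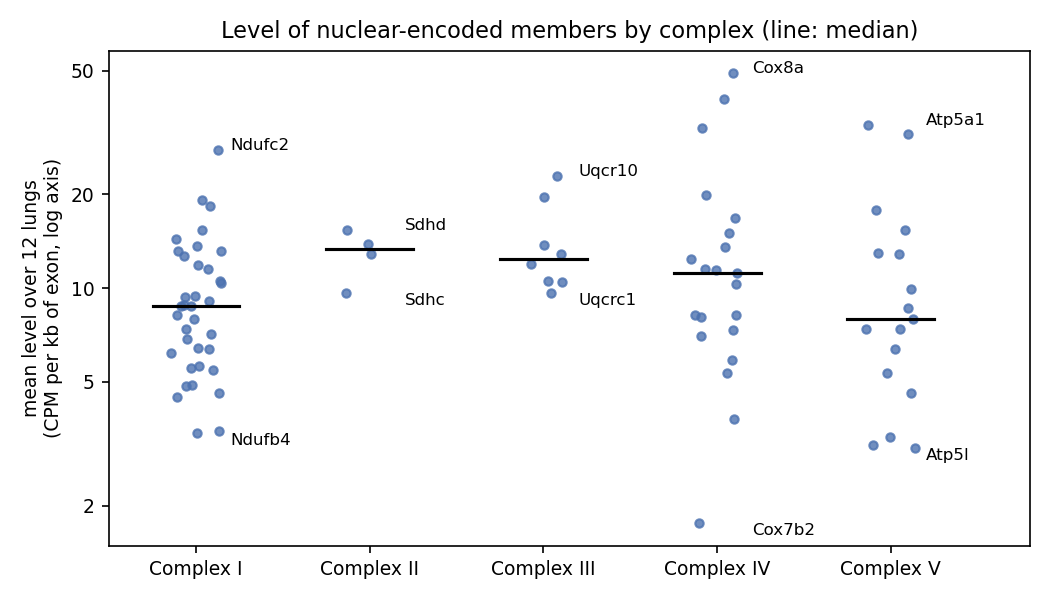
Mean level of each of the 86 tested nuclear-encoded members over the 12 lungs, in CPM per kilobase of merged exon on a log axis, by complex; the line is the median and the highest and lowest member of each complex are named. Complex IV spans the widest range, from Cox7b2 at 1.76 to Cox8a at 49.05.

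Several subunits exist as paralogues, and their ratio within a lung does not depend on library scaling. Cox4i2, known as the isoform of subunit IV that lung expresses beside the ubiquitous Cox4i1, exceeded it per kilobase of exon in all 12 lungs. The Cox4i2 to Cox4i1 ratio was 3.55, 2.32 and 2.61 in room air females and 2.25, 3.37 and 2.61 in hyperoxia females. It was 1.71, 2.61 and 2.64 in room air males and 3.17, 2.81 and 2.66 in hyperoxia males. The female groups overlapped, while in males the 3 ratios after hyperoxia lay above the 3 in room air, with 2.66 next to 2.64. The ratio itself was not tested. Per length of the longest coding transcript the ratio ran from 0.905 to 1.88. Of the 50-base words of Cox4i1 14.7% recur in other genes, and of those of Cox4i2 0%, so reads of Cox4i1 could be undercounted.

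Ndufa4l2, a hypoxia-inducible relative of the complex IV subunit Ndufa4, stood level with it, at a ratio of 0.692 to 1.46 and above 1 in 6 of 12 lungs. Per transcript length that ratio was 0.358 to 0.757. Cox7a2l, a factor of supercomplex assembly, exceeded Cox7a2 in 11 of 12 lungs, at a ratio of 0.956 to 2.03. Among the 3 genes of ATP synthase subunit c, Atp5g3 led, with Atp5g2 at 0.203 to 0.514 of its level and Atp5g1 at 0.162 to 0.347. Per transcript length these ratios were 0.150 to 0.379 and 0.0558 to 0.120.

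The isoforms known from other organs mostly stood below their ubiquitous partners. Against Cox6b1 the testis isoform Cox6b2 stood at a ratio of 0.145 to 0.338, or 0.240 to 0.559 by the longest transcript. Against Cox8a the testis isoform Cox8c stood at 0.0517 to 0.234. Cox7b2 was 0.0380 to 0.288 of Cox7b. The muscle isoform Cox8b was 0.0835 to 0.320 of Cox8a, and the muscle isoform Cox7a1 was 0.379 to 1.20 of Cox7a2. By the longest transcript in place of all exons the latter was 0.292 to 0.923, below 1 in all 12 lungs, where by exons it passed 1 in hyperoxia male replicate 2. The muscle isoform Cox6a2 was 0.252 to 1.71 of Cox6a1, or 0.205 to 1.39 by the longest transcript, above 1 by both in room air male replicate 1 alone. In females the Cox7a1 to Cox7a2 ratio was 0.428 to 0.524 in room air and 0.629 to 0.706 after hyperoxia. In the same order Cox6a2 to Cox6a1 was 0.423 to 0.551 and 0.277 to 0.387, and Atp5g2 to Atp5g3 0.203 to 0.375 and 0.413 to 0.463. For the other pairs the female groups overlapped, and none of these ratios was tested. Sperm and spermatid markers summed to 10.2 to 18.2 CPM over 4 genes, of which none was at 0. Background reads would account for 28.3 to 63.0% of the counts of each. The part of these markers in the testis isoforms was not tested.

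**Figure D2:**
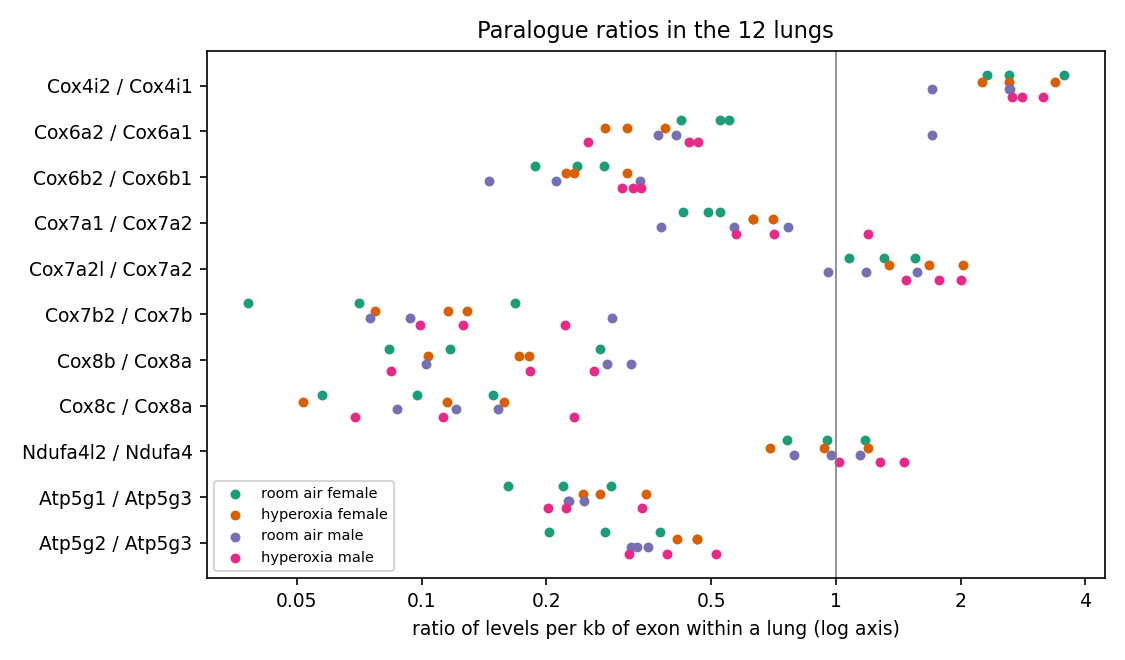
Ratio of the levels of paralogous members per kilobase of exon within each of the 12 lungs, on a log axis, 1 point per lung coloured by group, with a line at a ratio of 1. Cox4i2 lies right of the line in all 12 lungs, and Cox6a2 does so in room air male replicate 1 alone.

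Hyperoxia against room air was compared in each sex at PND 21, after the pups had recovered in room air. In females, nuclear-encoded members were mostly lower after hyperoxia, with none past the threshold. A log2 change below 0 was found for 82 of the 86 members, 95.3%, where 39% of the 45828 genes tested and 54.4% of the 20973 protein-coding genes tested were below 0. The median change was −0.32 over the members, 0.11 over all genes tested and −0.04 over the protein-coding genes. By complex the median was −0.28 for complex I, −0.40 for complex II, −0.42 for complex III, −0.30 for complex IV and −0.33 for complex V. All 4 members of complex II and all 8 of complex III were below 0.

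By edgeR's quasi-likelihood test, 0 of the 86 members were called in females (a fold change above 1.5 at a Benjamini-Hochberg adjusted p below 0.05), where 0.00218% of all genes tested were called, and DESeq2 also called 0. At an unadjusted p under 0.05, 31 members were lower and 0 higher, where 5.28% of all genes were lower and 7.32% higher. These 31 were 8 of 36 in complex I, 2 of 4 in complex II, 7 of 8 in complex III, 7 of 21 in complex IV and 7 of 17 in complex V. The 3 hyperoxia lungs lay wholly below the 3 room air lungs for 24 members and wholly above for 2, where 6.43% and 10.8% of all genes did so. The smallest adjusted p was 0.290.

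That smallest p belonged to Atp5h, the subunit d of the peripheral stalk of the ATP synthase (ENSMUSG00000034566, chromosome 11 from 115415689 to 115419962). Its level was 19.2, 27.4 and 19.04 CPM in the room air females and 15.04, 13.8 and 15.2 CPM in the hyperoxia females. Every hyperoxia lung was below every room air lung, with room air replicate 5 the highest. The log2 change was −0.58 (SE 0.16, adjusted p = 0.290, edgeR). In males it was −0.12 (SE 0.16), and the difference between the sexes was −0.45 (SE 0.23, adjusted p = 0.578, edgeR). 47.9% of its 50-base words recur in other genes, so part of its reads may have gone uncounted.

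Uqcrb and Atp5c1, singled out after their values were seen because some alternative settings called them, showed the same order of groups. Uqcrb (ENSMUSG00000021520, chromosome 13 from 66900617 to 66905378), a small subunit of complex III, had 22.5, 25.9 and 15.96 CPM in room air females and 13.9, 13.3 and 13.6 CPM in hyperoxia females. The hyperoxia lungs were close together and below all room air lungs, with a log2 change of −0.66 (SE 0.19, adjusted p = 0.290, edgeR). Atp5c1 (ENSMUSG00000025781, chromosome 2 from 10056016 to 10080510), the gamma subunit that forms the rotor shaft of the ATP synthase, had 38.7, 42.2 and 28.4 CPM and 25.1, 26.1 and 20.02 CPM. The groups again did not overlap, and the log2 change was −0.62 (SE 0.18, adjusted p = 0.317, edgeR).

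Other members of the ATP synthase and of complexes II and III were also below 0 in females, except Atp5g2. Atp5b, also named after its values were seen, had 173, 199 and 133 CPM in room air females and 121, 108 and 109 CPM in hyperoxia females. The groups did not overlap, and the log2 change was −0.58 (SE 0.23, adjusted p = 0.357, edgeR). For Atp5a1 the change was −0.49 and for Atp5g3 −0.45. Of the complex II anchors Sdhd had −0.44 and Sdhc −0.33. Of complex III Uqcr10 had −0.50 and Uqcrc1 −0.34. In complex I, Ndufc2 had 27.7, 31.9 and 18.01 CPM in room air females and 17.3, 19.2 and 19.6 CPM in hyperoxia females. Those groups overlapped, and the log2 change was −0.47 (SE 0.17, adjusted p = 0.354, edgeR). The members of complex IV with the lowest log2 changes in females were Cox6a2, described below, and Cox7a2, with 17.9, 17.6 and 13.9 CPM in room air and 11.3, 12.1 and 9.88 CPM after hyperoxia. The Cox7a2 groups did not overlap, and its log2 change was −0.57 (SE 0.16, adjusted p = 0.298, edgeR). Cox6b1 had −0.40 and Cox8a −0.45.

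The female values changed in fits that took account of background reads and when single lungs were left out. Receptor share was 0.516, 0.410 and 0.739% in the room air females and 0.669, 0.781 and 0.847% in the hyperoxia females. The groups overlapped but the share ran higher after hyperoxia, so a fit with both cannot fully separate them. The study names an olfactory receptor gene, Olfr78, among those raised in hyperoxia females, so the share may hold more than background. The median deviation of the 86 members from their own means over the 12 lungs was 0.21, 0.41 and −0.04 in the room air females on the log2 scale and −0.03, −0.15 and −0.14 in the hyperoxia females. The female median change was −0.10 and the male one −0.12 in a fit that carried the log2 receptor share as a term. With background reads subtracted they were −0.18 and −0.13, and without room air female replicate 5 the female median was −0.20. Summed markers of other lung cells moved likewise: alveolar type 2 markers stood at 8417, 9808 and 5033 CPM in the room air females and 6018, 4777 and 5029.5 CPM in the hyperoxia females, and endothelial markers at 1911, 1989 and 1299.6 CPM and 1475, 1128 and 1169.9 CPM. The 6 red cell markers summed to 5636 to 8138 CPM and 1299.7 to 3031 CPM, with no lung in common. Room air female replicate 5, which had the highest median deviation, also stood apart for the 4 ciliated cell markers, none of them at 0, with a sum of 105 CPM against 49.6 to 63.6 CPM in the other 11 lungs. The part of any of these in the members' values was not tested. In bulk lung tissue fewer cells of a type and less RNA per cell cannot be told apart. With 1 RUVr factor, a term for unwanted variation, 2 members were called lower in females, Atp5c1 and Uqcrb. Without room air female replicate 6 Ndufc2 was called lower beside these 2. The share of all genes called in either fit is not given here, so nothing is read from these counts.

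**Figure D3:**
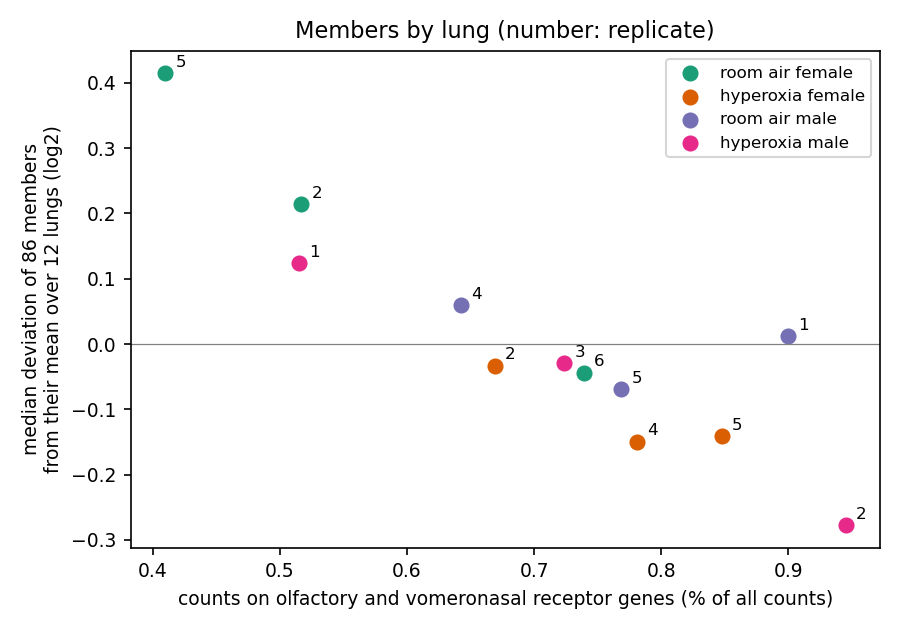
Median deviation of the 86 tested members from their means over all lungs (log2 scale, y axis) against the receptor share of each lung (% of counts, x axis), 1 point per lung, coloured by group and numbered by replicate. Room air female replicate 5 has the lowest receptor share, 0.410%, and the highest members, and hyperoxia male replicate 2 the highest share, 0.945%, and the lowest members.

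In males, members were spread on both sides of 0. A log2 change below 0 was found for 57 of the 86, 66.3%, where 52% of all genes tested and 47.9% of the protein-coding genes were below 0, and the median was −0.08 beside −0.01 for all genes tested and 0.0088 for the protein-coding genes. The complex medians were −0.05, −0.08, −0.14, −0.11 and −0.09 for complexes I to V. By edgeR 0 members were called, where 0% of all genes were, and DESeq2 called 0. At an unadjusted p under 0.05, 2 members were lower and 0 higher, where 1.8% of all genes were lower and 0.899% higher. The hyperoxia lungs lay wholly below the room air lungs for 6 members and wholly above for 1, where 3.89% and 2.73% of all genes did so. The median deviation of the members was 0.01, 0.06 and −0.07 in the room air males and 0.12, −0.28 and −0.03 in the hyperoxia males on the log2 scale, at receptor shares of 0.900, 0.642 and 0.769% and 0.515, 0.945 and 0.724%. The red cell markers summed to 5246 to 7567 CPM and 2195 to 4800.0 CPM, and their part was not tested. Without hyperoxia male replicate 2, the lung with the highest receptor share, the male median was 0.02. In the fit with the receptor share as a term it was −0.12, against −0.10 in females.

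The 2 male members past the unadjusted threshold were Cox6a2 and Ndufa4. Ndufa4 (ENSMUSG00000029632, chromosome 6 from 11900292 to 11907497) had 21.2, 16.8 and 14.1 CPM in room air males and 13.4, 11.3 and 13.7 CPM in hyperoxia males. The groups did not overlap, and the log2 change was −0.43 (SE 0.17, adjusted p = 1.00, edgeR). Its highest lung was room air male replicate 1, the library with skeletal muscle markers, and without it the change was −0.26. The member wholly above was Ndufb3, described with the comparison of the sexes.

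**Figure D4:**
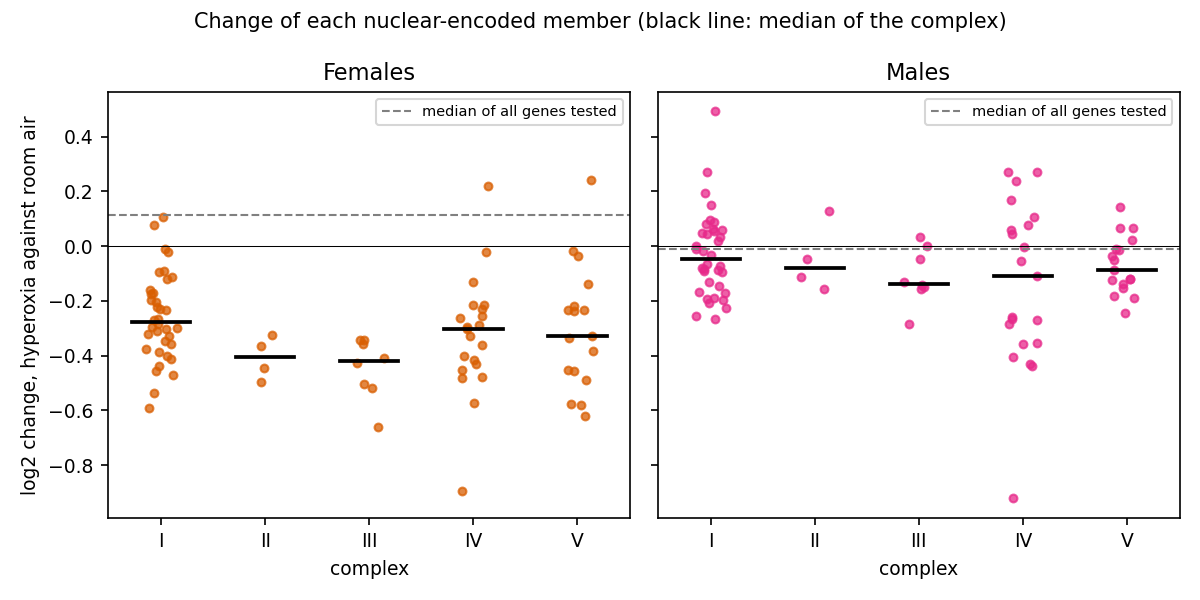
Log2 change after hyperoxia of each of the 86 tested members, by complex, in females and in males; the black line is the median of the complex and the dashed line the median of all genes tested. In females all 5 complex medians lie below the dashed line at 0.11, between −0.42 and −0.28, and in males they lie between −0.14 and −0.05.

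Over both sexes, 77 of the 86 members had a log2 change below 0, where 44% of all genes tested and 55.2% of the protein-coding genes did, and the median was −0.20 beside 0.03 for all genes and −0.02 for the protein-coding genes. With the receptor share as a term it was −0.13, and without room air female replicate 5 −0.12. The 6 red cell markers had a median of −1.20 in the same comparison, with 3 called lower by edgeR, and their part was not tested. By edgeR 0 members were called, where 0.0415% of all genes were, and DESeq2 called 0. At an unadjusted p under 0.05, 25 members were lower and 0 higher, where 2.52% of all genes were lower and 2.67% higher. The smallest adjusted p was 0.439.

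The 5 lowest changes over both sexes all belonged to complex IV. They were −0.91 for Cox6a2, −0.46 for Cox5b-ps, −0.42 for Cox7a2, −0.42 for Cox5a and −0.41 for Cox8b. Without room air male replicate 1 that of Cox6a2 was −0.52. Cox6a2 and Cox8b are muscle isoforms, and Cox5b-ps, a gene named as a copy of Cox5b and listed as protein-coding, shares 61.9% of its words with other genes. Cox5a, a nuclear subunit present in all tissues, had 9.62, 9.54 and 7.98 CPM in room air females, 5.77, 6.41 and 7.30 in hyperoxia females, 10.6, 10.96 and 6.10 in room air males and 7.75, 5.22 and 8.42 in hyperoxia males. Its groups did not overlap in females and overlapped in males. The 5 highest were 0.15 for Atp5g2, 0.15 for Cox7c, 0.09 for Ndufb7, 0.09 for Ndufb2 and 0.04 for Ndufb3. Each of these was smaller than 1.5 times its SE, and background reads would account for 33.7% of the counts of Ndufb2 and 25.8% of those of Atp5g2.

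Cox6a2 (ENSMUSG00000030785, chromosome 7 from 128205435 to 128206387), the heart and skeletal muscle isoform of subunit VIa, had the lowest p over both sexes and in males, with room air male replicate 1 included. Its level was 6.09, 7.38 and 5.69 CPM in room air females and 3.59, 3.55 and 3.18 CPM in hyperoxia females. The female groups did not overlap, and the log2 change was −0.90 (SE 0.34, adjusted p = 0.357, edgeR). In males it had 14.7, 5.13 and 4.18 CPM in room air and 3.03, 3.81 and 5.76 CPM after hyperoxia. Room air male replicate 1 stood far above the rest and the male groups overlapped. The male log2 change was −0.92 (SE 0.33, adjusted p = 1.00, edgeR) with that lung and −0.14 without it. Its ubiquitous partner Cox6a1 had 11.99, 18.002 and 10.7 CPM in room air females, 13.4, 9.47 and 10.5 in hyperoxia females, 8.88, 12.9 and 11.6 in room air males and 12.4, 8.93 and 12.8 in hyperoxia males, with overlap in both sexes.

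Muscle markers were read beside Cox6a2. The 10 cardiac markers summed to 408, 368 and 401 CPM in room air females, 278, 263 and 269.7 in hyperoxia females, 423, 256 and 314 in room air males and 242, 282 and 255 in hyperoxia males, and none of them was at 0. In females 8 of the 10 had a log2 change below 0 and 2 above, with a median of −0.42. 5 of them were lower at an unadjusted p under 0.05, where 5.28% of all genes tested were. By edgeR 0 were called, where 0.00218% of all genes were, with a smallest adjusted p of 0.0881. Among those below, Myh6, the main myosin heavy chain of the adult mouse heart, stood at 104, 91.1 and 95.8 CPM in room air females and 58.4, 34.5 and 41.4 CPM in hyperoxia females. Myl7, the atrial myosin light chain, stood at 17.4, 13.5 and 14.2 and 8.92, 3.06 and 4.90 CPM. The 10 skeletal muscle markers summed to 166, 135 and 201 CPM in room air females and 182, 205 and 208 CPM in hyperoxia females, with 7 of the 10 above 0 and a median of 0.22 (median SE 0.72). In room air male replicate 1 skeletal muscle stood out: these markers summed to 2346 CPM, with Acta1, skeletal actin, at 729 CPM against 4.77 to 7.48 CPM elsewhere. The part of either muscle in the Cox6a2 values was not tested. For the other muscle isoforms the female groups overlapped. Cox8b had 1.83, 3.05 and 4.50 CPM in room air females and 1.92, 2.66 and 2.41 CPM in hyperoxia females, and Cox7a1 had 4.33, 5.22 and 3.87 CPM and 4.02, 4.34 and 3.95 CPM.

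**Figure D5:**
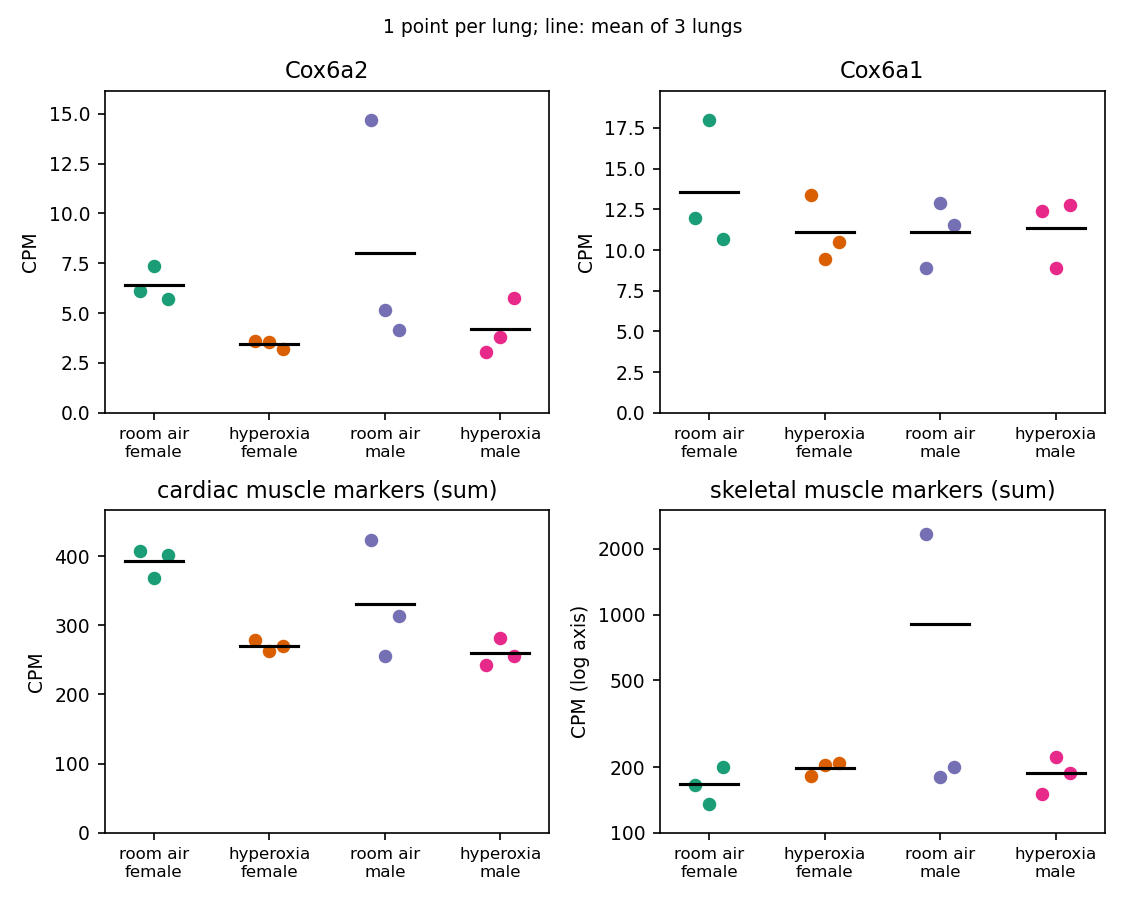
CPM of Cox6a2 and Cox6a1 and summed CPM of 10 cardiac and 10 skeletal muscle markers (the last on a log axis) in the 4 groups, 1 point per lung, with the mean of 3 lungs as a line. Cox6a2 and the cardiac markers separate room air from hyperoxia females, and room air male replicate 1 stands apart for Cox6a2 (14.7 CPM) and skeletal muscle (2346 CPM).

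The difference between the sexes in the response to hyperoxia was tested as an interaction, female change minus male change. It was below 0 for 74 of 86 members, where 41.4% of all genes tested were, with a median of −0.24 beside 0.12. Over the protein-coding genes tested 55.3% were below 0, with a median of −0.06. The medians of alveolar type 2, endothelial and ciliated cell markers in this comparison were −0.72, −0.39 and −0.52. Those of skeletal muscle, fat and sperm markers were above 0, and the part of any of these was not tested. By edgeR 0 members were called, where 0% of all genes were, with a smallest adjusted p of 0.578, and DESeq2 called 0. At an unadjusted p under 0.05, 4 members were lower and 0 higher. Of the 45828 genes tested, 1100 (2.4%) were lower and 2775 higher at that level. A count of 4 is too small to be read as a result about the members. In the fit with the receptor share as a term the median was 0.06, above 0, and with background reads subtracted it was −0.02. The median was −0.12 without room air female replicate 5 and −0.15 without hyperoxia male replicate 1. With 1 RUVr factor 10 members passed the adjusted p alone. The share of all genes doing so in that fit is not given here, so nothing is read from this count.

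The 4 members were Ndufb9, Ndufb3, Ndufc2 and Cox4i2. Ndufb9 (ENSMUSG00000022354, chromosome 15 from 58933756 to 58939488), an accessory subunit of the membrane arm of complex I, had the smallest p. It had 9.14, 9.61 and 6.56 CPM in room air females and 6.39, 5.33 and 5.76 in hyperoxia females, without overlap. In males it had 5.56, 6.96 and 6.50 CPM in room air and 9.08, 6.75 and 7.01 after hyperoxia, with overlap. Its interaction was −0.81 (SE 0.29, adjusted p = 0.578, edgeR), from −0.54 in females and 0.27 in males. With 1 RUVr factor it was called, at −0.77 (adjusted p = 0.0221, edgeR).

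Ndufb3 (ENSMUSG00000026032, chromosome 1 from 58586384 to 58595964), from the same arm, was the member whose groups separated in opposite directions. Its level was 4.67, 4.33 and 4.19 CPM in room air females against 3.59, 3.94 and 2.41 in hyperoxia females, all lower. It was 2.49, 2.96 and 3.37 CPM in room air males against 4.14, 3.48 and 4.73 in hyperoxia males, all higher. These levels rest on 28 to 69 counts per lung. The interaction was −0.91 (SE 0.37, adjusted p = 0.578, edgeR), from −0.41 in females and 0.49 in males. Cox4i2 (chromosome 2 from 152754173 to 152765037) had 34.5, 34.2 and 21.7 CPM in room air females, 26.3, 22.98 and 21.2 in hyperoxia females, 17.4, 26.3 and 24.01 in room air males and 34.1, 19.9 and 27.2 in hyperoxia males. The groups overlapped in both sexes, and the interaction was −0.63 (SE 0.27, adjusted p = 0.578, edgeR). Ndufc2 had an interaction of −0.53 (SE 0.25).

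Females and males were also compared over both exposures. Females were lower for 22 of 86 members, where 56.7% of all genes tested and 47.3% of the protein-coding genes were lower. The median was 0.07 beside −0.03 for all genes and 0.0094 for the protein-coding genes. For the members it was −0.0011 in the fit with the receptor share as a term, and it ran from 0.02 without room air female replicate 5 to 0.14 without hyperoxia male replicate 1. By edgeR 0 members were called, where 1.22% of all genes were, and DESeq2 called 0. At an unadjusted p under 0.05, 4 members were higher in females and 0 lower, where 4.05% of all genes were higher, a share so near that of the members that nothing is read from their count. The smallest p was that of Ndufb1-ps, listed as a protein-coding gene of complex I, with 9.01, 10.6 and 6.79 CPM in room air females, 8.31, 8.19 and 7.05 in hyperoxia females, 6.14, 6.96 and 7.39 in room air males and 6.57, 5.22 and 5.83 in hyperoxia males. The sexes overlapped, and the log2 difference was 0.39 (SE 0.14, adjusted p = 0.341, edgeR). The other 3 were Cox7b (0.30), Ndufb11 (0.29) and Atp5j2 (0.22), named after their values were seen.

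Genes that serve the same pathway were taken from lists. None of the 45 tested assembly factors, the 19 regulators of mitochondrial biogenesis, the 12 mobile carrier genes (cytochrome c and coenzyme Q synthesis) or the 77 tested mitochondrial ribosomal proteins was called by edgeR in females or in males. Calls by other tools were not counted for these lists. The median female change was −0.10 for assembly factors, −0.09 for biogenesis regulators, −0.06 for mobile carriers and −0.11 for mitochondrial ribosomal proteins, beside −0.32 for the members and 0.11 for all genes tested. At an unadjusted p under 0.05 in females, 1 assembly factor, 1 regulator, 1 mobile carrier gene and 5 ribosomal proteins were lower and none was higher. Over all genes tested 5.28% were lower at that level, so these counts are no result about the lists. In males 2 assembly factors were higher and 1 ribosomal protein was lower at that level, where 0.899% of all genes were higher and 1.8% lower. The median male changes were −0.01, 0.08, −0.06 and −0.0069 in the same order.

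The 3 single genes were named after their values were seen. The assembly factor was Coa3, which helps to insert mt-Co1 into complex IV, at −0.57 (SE 0.19, adjusted p = 0.339, edgeR). The regulator was Tfam, which packages mitochondrial DNA and helps to start its transcription, at −0.31 (adjusted p = 0.378, edgeR). The carrier gene was Coq2, of coenzyme Q synthesis, at −0.51 (adjusted p = 0.339, edgeR). Ppargc1a, which encodes PGC-1 alpha, had log2 changes of −0.09 in females and −0.10 in males, Nrf1 at 0.06 and 0.02, and Esrra, the ERR alpha gene, at −0.04 and 0.17. Each of these was within 1.5 times its SE. Cytochrome c itself (Cycs) had −0.30 and −0.28, and background reads would account for 56.0% of its counts.

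Reads of many members could be split with copies of the gene elsewhere. Of the 86 tested members, 50 shared under 5% of the 50-base words of their longest coding transcript with other genes, 15 shared 25% or more, and 33 had words in an annotated pseudogene. The highest shares were 84.8% in Atp5l, 61.9% in Cox5b-ps, 50.3% in Atp5o, 47.9% in Atp5h and 43.4% in Uqcrb. Over the 50 members that share little, the median change was −0.33 in females and −0.08 in males. Background reads would account for a median of 11.9% of a member's counts, and over the 69 members under 20% the medians were −0.34 in females and −0.09 in males.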

How the data were processed

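Whole-lung RNA of 12 miR-30a-/- mice was sequenced on 1 lane. The authors deposited 1 table of raw counts per gene, made with Trim Galore, STAR (mm10, GRCm38) and featureCounts; versions and the strand setting are not given in the sources used here, and the library kit is named differently by the labels and by the study's methods. The deposited counts are not normalized. Members and gene lists were chosen with earlier results of these data known.

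Counts were fitted in edgeR 4.0.16 (R 4.3.3, limma 3.58.1) with upper-quartile factors, filterByExpr (45828 of 55487 genes tested), 4 groups and the robust quasi-likelihood test. Contrasts were hyperoxia against room air over both sexes, in females and in males, their difference (female minus male), and females against males. Calls needed a fold over 1.5 and an adjusted p (Benjamini-Hochberg) under 0.05. Log2 changes and SEs come from this fit. Scripts were tested on simulated data.

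Lungs are separate animals. Depth was 8763033 to 16741694 counts; counting error alone is covered by the 3-count floors. Exon lengths and 50-base words came from GENCODE release M21, promoters from RefSeq. Background per gene was estimated from the count density over 1490 olfactory and vomeronasal receptors. Ndufa4 and Ndufa4l2 were placed in complex IV. Named were the mitochondrial members, any called member, the 5 highest and 5 lowest changes over both sexes among members with a mean of at least 10 counts, the smallest p of each contrast, the isoform pairs, and the highest and lowest level in each complex; others are said to be chosen after their values were seen. Alternatives were TMM, total counts, 1 RUVr factor, DESeq2 1.42.0, no filter, at least 10 counts in every library, receptor share as a term, adjusted p alone, other denominators for levels, a replicate block in females and leaving out each lung. Background subtraction and the 6 female libraries without a block were added after seeing the data. The study's joint adjustment with WT libraries was not applied, since these were not analysed here.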

Additional observations from a re-analysis of the deposited data

How the results depend on the processing

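No member was called in females under TMM, total counts, DESeq2, either filter, the receptor share term, adjusted p alone or background subtraction. With 1 RUVr factor the count of called members was 2 in females (Uqcrb −0.63, Atp5c1 −0.60 on the log2 scale) and 1 in the interaction (Ndufb9, −0.77). At adjusted p alone that edgeR fit passed 34 members in females, 21 over both sexes, 10 in the interaction and 3 between the sexes. The shares of all genes passing in that fit are not given here, so nothing about the members is read from these counts. Leaving out 1 lung at a time gave 0 to 3 called members in females, the 3 without room air female replicate 6. It gave 0 in the other 4 contrasts, and the shares of all genes called are not given for these fits either. The median log2 change of the members then ran from −0.43 to −0.20 in females, −0.13 to 0.020 in males, −0.25 to −0.12 over both sexes, −0.33 to −0.12 in the interaction and 0.022 to 0.14 between the sexes. It moved by over 1.5 times without room air female replicate 5 (all but the male median), hyperoxia male replicate 1 (male, interaction and sex), hyperoxia male replicate 2 (male and sex), room air male replicate 4 (male, −0.038) and room air female replicate 6 (sex, 0.14). The receptor share term moved the median to −0.10 in females and 0.059 in the interaction, and background subtraction to −0.18 and −0.023; the cause was not tested. In males these settings gave −0.12 and −0.13, and over both sexes −0.13 and −0.15. With the receptor share term the sign turned for Cox4i2 in females (0.10) and Uqcrb in the interaction (0.063). Without hyperoxia male replicate 2 it turned in males for Uqcrb, Atp5c1 and Atp5h, whose ranges over the lungs left out were −0.44 to 0.020, −0.34 to 0.068 and −0.25 to 0.00012. For Ndufb3 over both sexes it turned without hyperoxia female replicate 4, hyperoxia male replicate 3 or room air male replicate 1, with a range of −0.030 to 0.14. Of 1036 single-gene values under alternatives, 1018 kept their direction and side of the threshold. No median could be computed for the 13 mitochondrial members under any setting, since all were at 0.

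Animal numbers 2 and 5 occur in both female groups, but nothing in the labels makes them pairs, and the correlation of same-numbered deviations was 0.174 for number 2 and −0.324 for number 5. With the replicate block in females, 4 members were called (Atp5c1 −0.82, Uqcrb −0.78, Cox7a2 −0.71, Ndufc2 −0.66), against 0 in the same 6 libraries without it. The share of all genes called with the block is not given here, so nothing is read from this count. The block median was −0.36. Males share only number 1 between the exposures, so no block was fitted there.

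A member at the 3-count floor in a lung is at 0.191 to 0.327 CPM, and Cox7b2 had a minimum of 7 counts, with 68.5% of its counts within the background estimate.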
